A study of Mus musculus with 4 samples.

Results

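The Hox genes encode homeodomain transcription factors that give each level of the body axis its identity. They lie in 4 clusters, HoxA on chromosome 6, HoxB on chromosome 11, HoxC on chromosome 15 and HoxD on chromosome 2, and a gene's paralog group number gives its place in the cluster. Low numbers are used in the hindbrain and neck, middle numbers at brachial and thoracic levels, and high numbers at lumbar, sacral and tail levels. In the spinal cord the pattern is laid down in the embryo by retinoic acid, Wnt and Gdf11 signals, is held by Polycomb proteins, and persists in adult neurons and glia. Members were all rows of the deposited table whose symbol is Hoxa, Hoxb, Hoxc or Hoxd followed by a number, which gave 36 of 32246 genes. All 36 matched the GENCODE M21 annotation.

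The libraries were made from mononuclear cells of the spinal cord, taken by Percoll gradient. The mice, of strain C57BL/6, had EAE, an autoimmune inflammation of the cord induced by immunization and used to model multiple sclerosis. From day 8 after immunization the mice received, on alternate days, microPEP155 (P155), a short peptide encoded by the host transcript of miR-155, or as control a scramble microPEP (Scr). Each group had 2 libraries, here called Scr 4, Scr 5, P155 4 and P155 5 after their labels. The labels give neither the level of the cord that was taken nor whether each library came from its own animal. The spread behind each p-value is thus that of the libraries and may be technical.

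Levels are log2(normalized reads + 1), where normalized reads are reads divided by a size factor for the library. Library totals, in reads recovered from the table, were 63875400 in Scr 4, 64702900 in Scr 5, 63862700 in P155 4 and 30777600 in P155 5. Hox genes took 24498 to 47493 of these reads, 0.0715% to 0.0796% of each library. All 20 neuron markers, all 10 oligodendrocyte markers and all 12 leukocyte markers had reads in every library, so that neural and immune RNA were both present in samples labelled as mononuclear cells. Of 19 regional genes of forebrain and midbrain in the table, 8 were at 0 in at least 1 library, among them Otx2, Otx1 and Emx1. The highest of this list had reads in every library, with means of 187 normalized reads for En2, 127 for Neurod6 and 88.7 for Neurod1. Of the 15 tested, 0 passed adjustment (median difference -0.49).

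The Hox profile of the 4 libraries peaked at the paralog groups of the trunk. Per kilobase of merged exons, the scale used to compare genes with each other, paralog groups 6 to 9 held 65.7% of the Hox signal in Scr 4, 67.8% in Scr 5, 68.3% in P155 4 and 70.5% in P155 5. Groups 1 to 3, whose members pattern the hindbrain, held 5.24% to 5.99%. Groups 4 and 5, of neck and upper brachial levels, held 14.4% to 17.7%. Group 10, of lumbar levels, held 12.8% in Scr 4, 9.27% in Scr 5, 10.4% in P155 4 and 6.00% in P155 5. Groups 11 to 13, of lumbosacral and tail levels, held 1.93%, 0.285%, 0.178% and 0% in the same order.

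**Figure D1:**
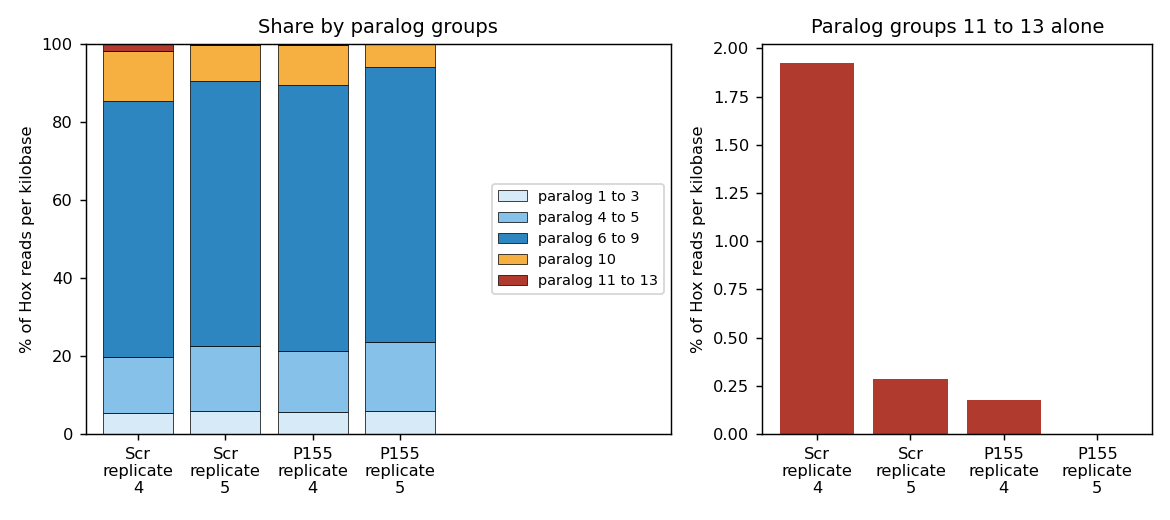
Share of the summed Hox level per kilobase of exon taken by bands of paralog groups in each library (left, in percent), and groups 11 to 13 alone on their own scale (right). Groups 11 to 13 held 1.93% in Scr 4 and 0% in P155 5, while groups 6 to 9 held 65.7% to 70.5%.

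The member with the highest level per length was Hoxb8, which patterns dorsal spinal circuits and is also used by blood progenitors. It stood at 2208 normalized reads per kilobase in Scr 4, 2068 in Scr 5, 1882 in P155 4 and 1909 in P155 5. P155 4 and P155 5 were the lower libraries, by a mean log2 difference of -0.17 (SE 0.14, limma adjusted p = 0.861). Next in mean level per kilobase came Hoxb9 with 1432, Hoxc8 with 1255, Hoxa7 with 1128 and Hoxb6 with 1061. The caudal gene Hoxc10, which directs the identity of lumbar motor neurons, followed with 986. Among the low members with reads in every library was Hoxd1, known for roles in early development of the nervous system, with 65.9 per kilobase. Below it lay the paralog groups 11 to 13, from 35.4 for Hoxa11 down to 0.242 for Hoxd12.

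**Figure D2:**
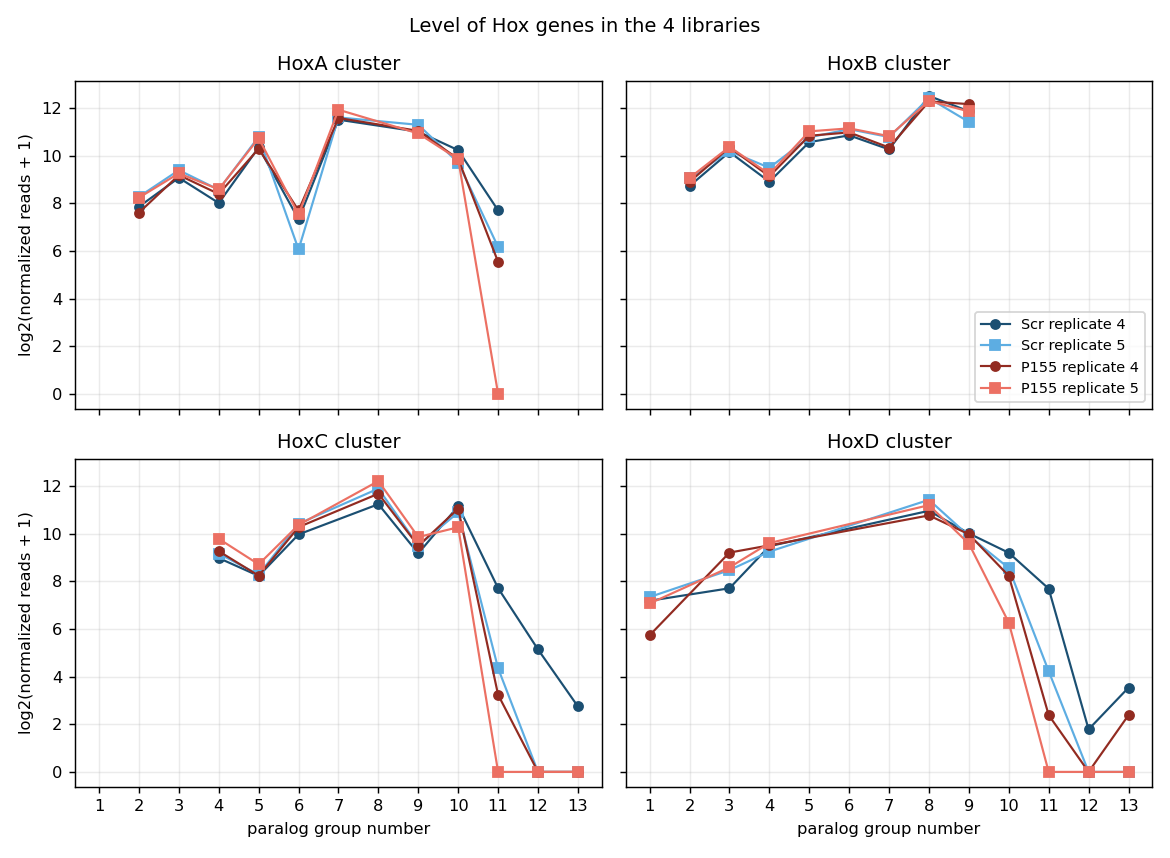
Level of 35 of the 36 Hox genes, as log2(normalized reads + 1), against its paralog group number in each cluster, with a line for each library (blue Scr, red P155; circles replicate 4, squares replicate 5). The 4 lines are widest apart in groups 11 to 13, where Scr 4 is the highest library and P155 5 lies at 0, and Hoxd10, Hoxa6, Hoxd1 and Hoxd3 also show a wide spread.

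Set against the scramble peptide, P155 changed no Hox gene past the threshold of an adjusted p under 0.05. By limma this was 0 of the 33 Hox genes tested and 0 of 27079 genes in all (0%). The smallest adjusted p of a Hox gene was 0.861. The 3 members left out by the filter on low values were Hoxc12, Hoxd12 and Hoxc13. At an unadjusted p under 0.05, Hoxc11 and Hoxd11 were lower in P155, 2 of 33 against 3.18% of all genes tested, and 0 were higher, against 1.17%. By limma-voom on the recovered reads 0 of 33 had an unadjusted p under 0.05, against 3.96% of all genes. An FDR under 0.05 in the authors' deposited table was given to 0 of 36 Hox genes, against 0.53% of its genes. At a p-value under 0.05 the authors' deposited table holds 1 lower Hox gene, Hoxd10, against 4.27% of its genes, and 1 higher, Hoxd3, against 1.98%.

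As a family the Hox genes were not shifted to a side. A log2 difference below 0 was found in 17 of 33 Hox genes and in 53.4% of all genes tested. The median log2 difference of the 33 genes was -0.01, beside -0.03 over all genes tested. The groups did not overlap, with P155 lower, in 7 of 33 Hox genes, 21.2%, against 19.6% of all genes tested. With P155 higher it was 6 of 33, 18.2%, against 15.2%. Both shares were near the background. Among the lower genes were Hoxd1, Hoxb8, Hoxd10, Hoxa11, Hoxc11 and Hoxd11, and the higher ones were Hoxb3, Hoxd3, Hoxc4, Hoxd4, Hoxb5 and Hoxa6. Of the 26 genes in paralog groups 1 to 9, 16 had a mean above 0 and 10 below, with differences between -0.86 and 0.92. Of the 7 genes tested in groups 10 to 13, all 7 had a mean below 0, with differences between -4.77 and -0.11. Members of groups 12 and 13 could pass the filter only through libraries with reads, so this count is a description of the genes that passed.

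**Figure D3:**
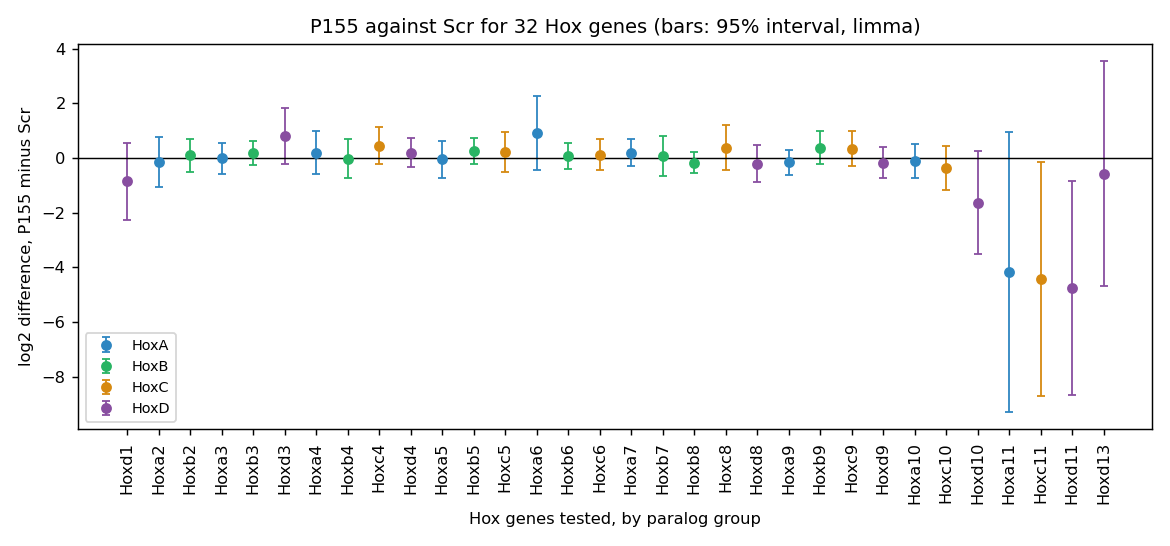
Log2 difference between the mean of the 2 P155 and the mean of the 2 Scr libraries for 32 of the 33 Hox genes tested, in the order of paralog groups and coloured by cluster, with 95% intervals from limma as bars. Groups 1 to 9 lie between -0.86 and 0.92, and Hoxd10, Hoxa11, Hoxc11 and Hoxd11 lie lowest with wide intervals.

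Of the hindbrain and neck members, Hoxd1 and Hoxd3 varied most between libraries. Hoxa2, which patterns the second rhombomere, measured 7.86 in Scr 4, 8.28 in Scr 5, 7.61 in P155 4 and 8.24 in P155 5. Hoxb2 measured 8.73 in Scr 4, 9.06 in Scr 5, 8.90 in P155 4 and 9.07 in P155 5. In both genes the groups overlapped. Hoxb3 was at 10.15 in Scr 4, 10.19 in Scr 5, 10.35 in P155 4 and 10.37 in P155 5. Its groups did not overlap, with a difference of 0.19 (SE 0.16, limma adjusted p = 0.861), and 52.9% of its exon bases are shared with the opposite-strand transcript Hoxb3os. Hoxd3 was at 7.71 in Scr 4, 8.47 in Scr 5, 9.21 in P155 4 and 8.59 in P155 5. The P155 libraries were the higher ones, by 0.81 (SE 0.39, limma adjusted p = 0.861). The difference was 0.43 without Scr 4, 0.50 without P155 4 and 1.19 without Scr 5. The authors' deposited table gives Hoxd3 a p-value of 0.0368 and an FDR of 0.723. Of its exon bases 62.9% are shared with other genes, mainly Hoxd4 and Gm28230, so its reads cannot be assigned with certainty. Hoxd1 stood at 7.18 in Scr 4, 7.34 in Scr 5, 5.74 in P155 4 and 7.07 in P155 5. P155 4 was the low library, and without it the difference of -0.86 became -0.19.

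Other members of paralog groups 3 and 4 had Scr 4 or Scr 5 as the lowest library. Hoxa3, known for the throat and neck, measured 9.07 in Scr 4, 9.39 in Scr 5, 9.18 in P155 4 and 9.26 in P155 5. Hoxa4 measured 8.01 in Scr 4, 8.57 in Scr 5, 8.39 in P155 4 and 8.59 in P155 5, and Hoxb4, a gene of blood stem cells as well as of the neck, measured 8.91 in Scr 4, 9.49 in Scr 5, 9.13 in P155 4 and 9.23 in P155 5. In these 3 genes Scr 4 was the lowest library and the groups overlapped. Hoxd4 measured 9.47 in Scr 4, 9.25 in Scr 5, 9.51 in P155 4 and 9.61 in P155 5, with P155 above Scr by 0.20 (0.084 without Scr 5 and 0.31 without Scr 4), and 52.3% of its exon bases are shared with other genes.

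Among the brachial and thoracic members, Hoxc4, Hoxb5 and Hoxa6 had groups that did not overlap, with P155 higher, and none of them passed the test. Hoxc4, a member also used by lymphocytes, was at 8.98 in Scr 4, 9.17 in Scr 5, 9.26 in P155 4 and 9.78 in P155 5. Its P155 libraries lay above its Scr libraries by 0.45 (SE 0.26, limma adjusted p = 0.861), which was 0.19 without P155 5 and 0.71 without P155 4. Hoxa5, needed for the phrenic motor neurons that drive the diaphragm, was at 10.34 in Scr 4, 10.79 in Scr 5, 10.29 in P155 4 and 10.73 in P155 5, so that each group held a low and a high library. Hoxb5 was at 10.57 in Scr 4, 10.77 in Scr 5, 10.83 in P155 4 and 11.02 in P155 5, by a difference of 0.26 (SE 0.18, limma adjusted p = 0.861) that was 0.16 without Scr 4 and 0.17 without P155 5. Hoxa6 was at 7.33 in Scr 4, 6.06 in Scr 5, 7.70 in P155 4 and 7.53 in P155 5. Scr 5 was the low library, and the difference of 0.92 was 0.28 without it and 1.55 without Scr 4.

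Hoxc6 and Hoxc8, which assign motor neurons to forelimb muscles, had overlapping groups. Hoxc6 was at 9.97 in Scr 4, 10.42 in Scr 5, 10.28 in P155 4 and 10.37 in P155 5. Hoxc8 was at 11.24 in Scr 4, 11.89 in Scr 5, 11.68 in P155 4 and 12.21 in P155 5. Hoxc9, which sets the thoracic level and represses the forelimb programme, was at 9.17 in Scr 4, 9.50 in Scr 5, 9.49 in P155 4 and 9.86 in P155 5. For Hoxc8 and Hoxc9 alike, Scr 4 was the lowest library and P155 5 the highest, the reverse of the end libraries of the caudal genes. Scr 5 lay above P155 4 in both, so the full order was not reversed. Hoxa9, a gene of blood progenitors as well as of the trunk, measured 11.01 in Scr 4, 11.29 in Scr 5, 11.04 in P155 4 and 10.93 in P155 5. Hoxb9 was at 11.86 in Scr 4, 11.42 in Scr 5, 12.16 in P155 4 and 11.86 in P155 5, and its groups overlapped.

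The remaining members of groups 5 to 9 had overlapping groups too. Hoxc5 measured 8.23 in Scr 4, 8.28 in Scr 5, 8.23 in P155 4 and 8.71 in P155 5. Hoxb6 measured 10.85 in Scr 4, 11.11 in Scr 5, 10.98 in P155 4 and 11.15 in P155 5, and Hoxb7 measured 10.26 in Scr 4, 10.78 in Scr 5, 10.34 in P155 4 and 10.82 in P155 5. In each of these 3 genes P155 5 was the highest library. Hoxa7, a trunk patterning gene, measured 11.51 in Scr 4, 11.60 in Scr 5, 11.58 in P155 4 and 11.93 in P155 5, and P155 5 was again the highest. Hoxd8 measured 10.96 in Scr 4, 11.42 in Scr 5, 10.77 in P155 4 and 11.20 in P155 5, highest in Scr 5. Hoxd9, at the border to the lumbar range, measured 10.01 in Scr 4, 9.90 in Scr 5, 9.97 in P155 4 and 9.58 in P155 5, with P155 5 as the lowest library.

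The members of groups 11 to 13 carried the widest spread between libraries. The range from the lowest to the highest library had a median of 0.53 log2 units over the 26 genes of groups 1 to 9. Over all genes tested it was 0.88, and over the 3 genes of group 10 it was 0.89. Over the 4 genes tested of groups 11 to 13 it was 7.70, and each of these had a library at 0 reads. Over the 7 genes tested of groups 10 to 13 together it was 3.54, the value of Hoxd13, which had at most 13 reads. Scr 4 was the highest library in all 7, an order found in 17.6% of all genes tested and in 2 of the 26 genes of groups 1 to 9. Scr 4 was the highest and P155 5 the lowest library in Hoxd9, Hoxc10, Hoxd10, Hoxa11, Hoxc11 and Hoxd11, 6 of 33 Hox genes, against 6.3% of all genes tested. P155 5 was the lowest library in 7 of 33, against 28.4%. These orders were looked for after the values had been seen. In these bulk samples, fewer cells of caudal identity and less of each transcript per cell cannot be told apart. The level of the cord that entered each library is not given, so the treatment and the level cannot be told apart either.

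The start regions of the caudal genes are shown because Hoxd10, Hoxa11 and Hoxd11 share an order of the libraries, with that of Hoxb8, the highest member, beside them. Each is the 250 bases before the RefSeq start site on the gene's strand (build GRCm38.p6), with the start nearest the start codon where there were several. Capitals mark matches on either strand to TGATNNAT, a motif of Pbx with Hox proteins, to CAATAAA, a motif of Cdx factors, or to TATAAA, the TATA box.
Hoxb8, chr11:96281655-96281904, plus strand: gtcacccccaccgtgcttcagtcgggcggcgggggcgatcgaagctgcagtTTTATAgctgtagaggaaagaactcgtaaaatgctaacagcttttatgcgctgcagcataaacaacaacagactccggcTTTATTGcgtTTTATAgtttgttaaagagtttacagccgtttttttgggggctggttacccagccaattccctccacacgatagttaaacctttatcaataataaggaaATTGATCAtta
Hoxd10, chr2:74691641-74691890, plus strand: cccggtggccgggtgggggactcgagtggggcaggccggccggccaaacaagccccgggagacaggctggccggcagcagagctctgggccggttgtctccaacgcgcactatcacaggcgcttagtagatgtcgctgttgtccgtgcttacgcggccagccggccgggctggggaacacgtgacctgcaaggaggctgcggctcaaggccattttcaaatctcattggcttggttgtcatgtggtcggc
Hoxd11, chr2:74682073-74682322, plus strand: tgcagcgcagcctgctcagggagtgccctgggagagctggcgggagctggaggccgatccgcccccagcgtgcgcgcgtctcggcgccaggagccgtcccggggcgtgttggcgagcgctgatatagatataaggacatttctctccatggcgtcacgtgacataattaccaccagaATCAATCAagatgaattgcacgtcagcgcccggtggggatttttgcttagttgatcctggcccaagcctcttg
Hoxa11, chr6:52245811-52246060, minus strand: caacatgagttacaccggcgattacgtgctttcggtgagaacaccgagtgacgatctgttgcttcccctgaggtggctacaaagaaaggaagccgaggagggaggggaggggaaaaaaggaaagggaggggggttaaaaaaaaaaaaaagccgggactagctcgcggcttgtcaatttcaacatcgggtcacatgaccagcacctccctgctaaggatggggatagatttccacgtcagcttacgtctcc

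A RefSeq window was matched for 20 of the 36 members. The caudal genes Hoxc10 and Hoxc11 had none, although Hoxc11 has the same order of the libraries as the caudal genes shown. Hoxd10 and Hoxa11 held no match in these windows, Hoxd11 held 1 to TGATNNAT, and Hoxb8 held 1 to TGATNNAT, 1 to CAATAAA and 2 to TATAAA. Over the Hox windows TGATNNAT was found in 3 of 20 against 7.68% of 32851 RefSeq windows of the same length. For CAATAAA it was 1 of 20 against 4.2%, and for TATAAA 4 of 20 against 12.4%. These windows held 20 CpG dinucleotides for Hoxd10, 20 for Hoxd11, 13 for Hoxa11 and 12 for Hoxb8. The median was 13 over the 20 Hox windows and 6 over all windows. None of these motifs was found in all 3 caudal genes shown, which says nothing of the caudal genes without a window or of factors that bind elsewhere in the clusters.

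Of the lumbar group 10, Hoxa10 varied least and Hoxd10 most. Hoxa10 was at 10.23 in Scr 4, 9.71 in Scr 5, 9.86 in P155 4 and 9.85 in P155 5, with overlapping groups. Hoxc10 was at 11.16 in Scr 4, 10.89 in Scr 5, 11.05 in P155 4 and 10.27 in P155 5. P155 5 was the low library, and without it the difference of -0.36 became 0.025. Hoxd10, which acts with Hoxc10 on lumbar motor neurons (chromosome 2, 74691924 to 74695105, plus strand, GRCm38), was at 9.20 in Scr 4, 8.56 in Scr 5, 8.23 in P155 4 and 6.27 in P155 5. P155 was lower without overlap, by -1.63 (SE 0.72, limma adjusted p = 0.861). The difference was -0.65 without P155 5 and -2.61 without P155 4. The authors' deposited table gives Hoxd10 a p-value of 0.025 and an FDR of 0.643.

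Members of paralog group 11, which pattern the hindlimb, kidney and lumbosacral region, were the steepest of those with reads in 3 libraries. Hoxa11 (chromosome 6, 52242106 to 52245810, minus strand, GRCm38) had 254 reads in Scr 4, 84 in Scr 5, 54 in P155 4 and 0 in P155 5. Hoxc11 (chromosome 15, 102954427 to 102957708, plus strand) had 256, 23, 10 and 0 reads in the same order. Hoxd11 (chromosome 2, 74679557 to 74687016, plus strand) had 252, 21, 5 and 0 reads. The order of the libraries was the same in all 3 genes, which lie on 3 chromosomes. As log2 differences they stood at -4.16 for Hoxa11 (SE 1.94), -4.41 for Hoxc11 (SE 1.62) and -4.77 for Hoxd11 (SE 1.49), each with limma adjusted p = 0.861.

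Single libraries set the size of these differences. Without Scr 4 the difference was -3.40 for Hoxa11, -2.73 for Hoxc11 and -3.03 for Hoxd11. Without P155 5 it was -1.39, -2.79 and -3.58, and without P155 4 it was -6.93, -6.03 and -5.96. Without Scr 5 it was -4.93, -6.09 and -6.50. The sign was negative in each case, but this was fixed in advance. The groups of these genes did not overlap, so leaving out a library could not turn it. Because P155 5 was listed at 0, these values depend on the 1 added to each level, and with 0.1 added instead they were -5.83 for Hoxa11, -6.11 for Hoxc11 and -6.53 for Hoxd11.

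Counting error differed in weight between the genes. For Hoxd11, the 95% Poisson interval, which covers counting error only, ran from 181 to 233 normalized reads in Scr 4 and from 11 to 27.1 in Scr 5. In P155 4 it ran from 1.37 to 9.84, and the 0 reads of P155 5 allow up to 5.06 normalized reads at the limit of 3 reads. At this depth Hoxd11 was not detectably different between the P155 libraries. Hoxa11 and Hoxd10 did differ between the P155 libraries beyond counting error. For Hoxa11, the 54 reads of P155 4 correspond to 27 reads at the depth of P155 5, where 0 were found. For Hoxd10, the interval ran from 268 to 331 normalized reads in P155 4 and from 55.4 to 102 in P155 5. The Scr libraries differed from each other beyond counting error too, in Hoxd11 and in the following genes. Hoxc11 ran from 184 to 236 in Scr 4 and from 12.3 to 29.1 in Scr 5. Hoxa11 ran from 183 to 234 in Scr 4 and from 56.5 to 87.7 in Scr 5. Hoxd10 ran from 544 to 630 in Scr 4 and from 341 to 412 in Scr 5. Of the exon bases of Hoxa11, 35% are shared with the opposite-strand transcript Hoxa11os, while Hoxc11 shares no exon base with another gene.

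The last paralog groups were all but limited to Scr 4. Hoxc12 had 42 reads there and 0 in the other 3 libraries. Hoxc13, a gene known from hair and tail development, had 7 reads there and Hoxd12 had 3, with 0 elsewhere. Hoxd13, known for the digits and the end of the trunk, had 13 reads in Scr 4, 5 in P155 4 and 0 in Scr 5 and P155 5. Zero reads allow up to 2.53 normalized reads in Scr 5 and in P155 4, and up to 5.06 in P155 5. With 34.3 normalized reads, Hoxc12 in Scr 4 lay above these limits, while Hoxd12 with 2.45 did not.

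**Figure D4:**
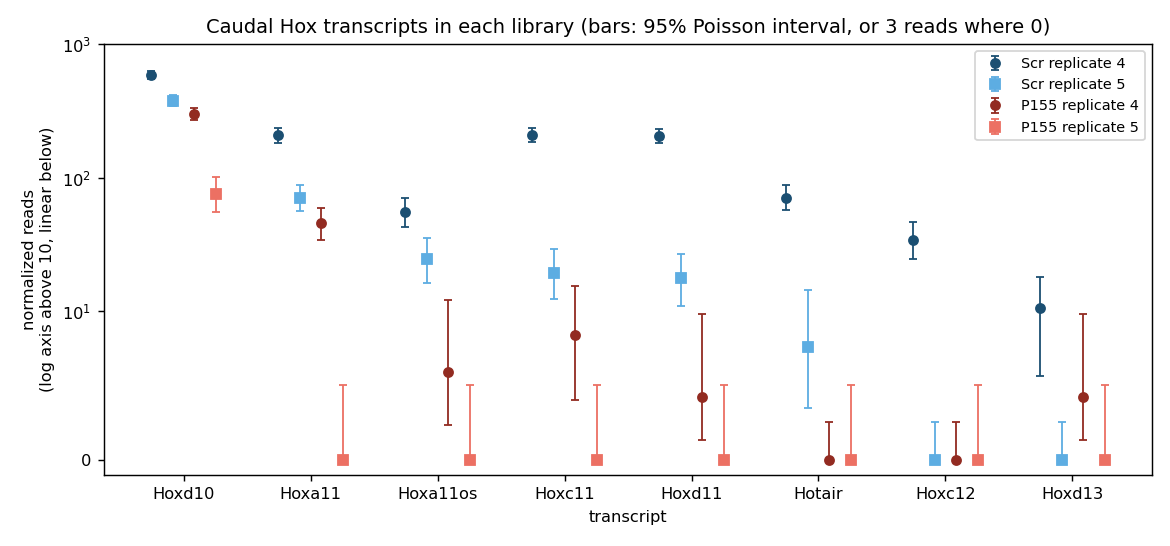
Normalized reads of caudal Hox genes and of the noncoding transcripts Hoxa11os and Hotair in each library, on an axis that is logarithmic above 10 and linear below, with 95% Poisson intervals as bars, or up to the limit of 3 reads where a library had 0. For each of the 8 transcripts Scr 4 is the highest library, and P155 5 is at 0 for 7 of them and lowest for Hoxd10.

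Noncoding transcripts from the same stretches of the clusters were measured apart from the members. Hotair, an RNA transcribed between Hoxc11 and Hoxc12, had 87 reads in Scr 4, 9 in Scr 5 and 0 in both P155 libraries (log2 difference -4.64, SE 1.19, limma adjusted p = 0.861). Hoxa11os, antisense to Hoxa11, had 68, 29, 7 and 0 reads in the same order (log2 difference -3.85, SE 1.14, limma adjusted p = 0.861). Hoxa11os had the order of libraries of the paralog group 11 genes, although its counts may include reads of Hoxa11, and in Hotair both P155 libraries were tied at 0. Of 14 noncoding cluster transcripts tested, 0 passed adjustment, 7 lay higher and 7 lower, with a median of 0.05. Haglr, a transcript next to Hoxd1, and Hoxaas3, antisense in the HoxA cluster, spanned 8.51 to 9.69 and 7.48 to 8.79. Evx2, which lies beside Hoxd13 and marks spinal interneurons, stood at 5.07 in Scr 4, 4.97 in Scr 5, 5.12 in P155 4 and 5.19 in P155 5. It was level across the libraries, on 40, 36, 40 and 21 reads in the same order. Evx1, from the same lists, was not level, at 5.47 in Scr 4, 4.02 in Scr 5, 6.15 in P155 4 and 5.19 in P155 5.

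Ratios between neighbours of 1 cluster, formed within a library, followed the order of the caudal genes in some pairs and not in others. Per kilobase, the log2 ratio of Hoxd10 to Hoxd9 was -0.58 in Scr 4, -1.11 in Scr 5, -1.52 in P155 4 and -3.10 in P155 5. The log2 ratio of Hoxd11 to Hoxd10 was -2.72, -5.62 and -7.36 in the first 3 of these, and could not be formed in P155 5. For Hoxd10 over Hoxd8 it was -1.17, -2.27, -1.95 and -4.35 in Scr 4, Scr 5, P155 4 and P155 5, with P155 4 above Scr 5 and overlapping groups. For Hoxc10 over Hoxc8 it was 0.49, -0.43, -0.06 and -1.37, with P155 4 above Scr 5, so that these groups overlapped too. For Hoxa10 over Hoxa9 it was -0.0055, -0.82, -0.41 and -0.31, with both P155 libraries between the Scr libraries. For Hoxc9 over Hoxc8, wholly within the thoracic range, it stayed between -2.17 and -1.85. In the HoxB cluster, whose members here end at Hoxb9, the log2 ratio of Hoxb8 to Hoxb5 was 2.02 in Scr 4, 1.72 in Scr 5, 1.52 in P155 4 and 1.36 in P155 5, in the order of the caudal genes. For Hoxb9 over Hoxb8 it was -0.61, -0.96, -0.079 and -0.41, with both P155 libraries above both Scr libraries, the other direction.

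As 1 number per library, the mean paralog number weighted by level per kilobase was 7.38 in Scr 4, 7.07 in Scr 5, 7.21 in P155 4 and 6.96 in P155 5. The groups overlapped, and the difference of -0.14 was smaller than the pooled SD of 0.20 between libraries of a group. It was 0.015 without Scr 4, -0.29 without Scr 5, -0.26 without P155 4 and -0.013 without P155 5. The log2 ratio of groups 9 to 13 to groups 4 to 8 was -0.98, -1.55, -1.10 and -1.75 in the same order and also overlapped, with a difference of -0.16 that turned to 0.13 without Scr 4 and to 0.16 without P155 5. With groups 10 to 13 set against groups 4 to 9 it was -2.44 in Scr 4, -3.14 in Scr 5, -2.99 in P155 4 and -3.88 in P155 5. The difference was -0.64, and with P155 4 above Scr 5 the groups overlapped here as well. This last ratio was chosen after the data had been seen.

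By cluster, summed levels were near equal. On the log2 scale the summed normalized reads of HoxA were 13.13 in Scr 4, 13.27 in Scr 5, 13.10 in P155 4 and 13.29 in P155 5. HoxB stood at 13.98 in Scr 4, 13.99 in Scr 5, 14.05 in P155 4 and 14.08 in P155 5, a difference of 0.08. HoxC stood at 12.84 in Scr 4, 13.09 in Scr 5, 13.01 in P155 4 and 13.22 in P155 5, with overlapping groups. HoxD stood at 12.26 in Scr 4, 12.35 in Scr 5, 12.11 in P155 4 and 12.13 in P155 5, a difference of -0.18. HoxB and HoxD thus had groups that did not overlap, in opposite directions. Relative to the summed neuron markers of the same library the difference was -0.20 for HoxB and -0.46 for HoxD. For HoxC it was -0.12, beside 0.15 without this reference. The signs for HoxB and HoxC thus depended on the reference, and relative to neuron markers the HoxB groups overlapped.

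The partners and regulators of the Hox proteins gave no call either. The cofactor list held members of the Pbx, Meis and Pknox families, homeodomain proteins that bind DNA with Hox proteins. Pbxip1, in the same list, belongs to none of these families. Of the 10 genes of this list, 5 were higher and 5 lower, with a median of -0.0014 and 0 past adjustment. Pbx2 spanned 11.18 to 11.59. Of 27 Polycomb genes, which keep Hox genes silent outside their domains, 0 passed, with a median of -0.09. Cbx6 spanned 13.44 to 13.74 and Rbbp4 spanned 12.89 to 12.93. Of 14 trithorax and COMPASS genes, which keep Hox genes active, 0 passed, with a median of 0.05, and Kmt2a, the MLL methyltransferase gene, was at 11.95 in Scr 4, 12.57 in Scr 5, 12.88 in P155 4 and 12.68 in P155 5. Of 16 upstream regulators tested, 0 passed, with a median of -0.20 and 12 lower, and Rxra spanned 11.66 to 11.95. Cyp26a1, an enzyme that degrades retinoic acid, was named after its values were seen, with 57 reads in Scr 4, 29 in Scr 5 and 0 in both P155 libraries (log2 difference -5.12, SE 0.68, limma adjusted p = 0.861).

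Taken as a list, spinal neuron factors did not follow the caudal Hox genes, though single members were lower in P155. Of 26 motor column and interneuron transcription factors, 0 passed adjustment, 18 lay higher and 8 lower in P155, with a median of 0.23. The groups did not overlap, with P155 higher, in 9 of the 26, against 15.2% of all genes tested. With P155 lower it was 4 of 26, against 19.6%. Etv1, the highest of them, was at 11.36 in Scr 4, 10.33 in Scr 5, 11.79 in P155 4 and 11.97 in P155 5. Foxp1, the Hox cofactor of limb motor neurons, was at 10.53 in Scr 4, 8.02 in Scr 5, 8.87 in P155 4 and 10.50 in P155 5, with fully overlapping groups.

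Levels of other cell types moved between the same libraries. The 20 neuron markers summed to 553214 normalized reads in Scr 4, 419232 in Scr 5, 633614 in P155 4 and 537810 in P155 5, not in the order of the caudal genes, with 17 of 20 higher in P155 on average (median 0.28). The 12 endothelial markers summed to 26603, 24459, 22919 and 18586, which is that order. The 10 markers of Schwann cells and dorsal root ganglia summed to 120636, 83982, 54489 and 69216, with 10 of 10 lower in P155 on average. For the 12 leukocyte markers the sums were 41051, 58328, 34230 and 22759, with 11 of 12 lower. None of these markers was at 0 in any library. The 10 skeletal muscle markers summed to 981, 2608, 456 and 9414, highest in P155 5, with Myh1 at 0 in 1 library. The 10 haematopoietic progenitor genes summed to 9907, 8074, 6333 and 7434, highest in Scr 4 and none at 0. Among these genes, picked after their values were seen, Mpo, a myeloid granule enzyme, had 1694 normalized reads in Scr 4, 258 in Scr 5, 44.7 in P155 4 and 395 in P155 5. Their part in the Hox values was not tested.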

How the data were processed

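Poly(A) RNA was selected on oligo(dT) beads before sequencing, per the labels. STAR 2.5.3a, bcl2fastq and DESeq2 are named, along with build mm10, by the submitters' processing notes. How reads were counted, by which annotation and strand setting, is not given in the sources used here. Each deposited column holds log2 values of normalized reads plus 1. Undoing them gave whole multiples of 1 step per library for 100% of values within a tolerance of 1e-06, so reads were recovered. The authors' p-value and FDR columns come from a test that its header does not name.

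A gene was tested if 2 or more libraries reached 1 normalized read. The groups were compared by limma 3.58.1 under R 4.3.3 (mean-variance trend, two-sided, Benjamini-Hochberg over all 27079 genes, threshold 0.05), a test tried on simulated data. A fold change on this scale understates the change of low genes. Exon lengths and positions are from GENCODE M21, and start regions from RefSeq. Alternatives were the replicate number as a block, each library left out, library-size scaling, no filter, a filter at 10 normalized reads, a pseudocount of 0.1, a threshold of 0.1 and limma-voom on recovered reads, and, for sums and ratios, other weightings. The planned protein stretches are not reported here.

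Members and lists were chosen with earlier results of these data known. Hox genes with a mean of at least 50 normalized reads or an unadjusted p under 0.05 are given in every library, except 1 member that is not reported here, and up to 3 genes with the highest mean from each list.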

Additional observations from a re-analysis of the deposited data

How the results depend on the processing

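Over all alternatives tried, 0 genes and 0 Hox genes passed adjustment, with 1179 genes at an unadjusted p under 0.05 on the reported settings, 3286 without Scr replicate 4, 2214 without P155 replicate 4, 782 without P155 replicate 5 and 773 with the stricter filter. With the replicate number as a block, 0 Hox genes passed and 4 had an unadjusted p under 0.05 (Hoxd10, Hoxa11, Hoxc11 and Hoxd11), with 1195 genes in all against 1179 without it. The deviations of same-numbered libraries correlated at 0.07 across genes, and the labels do not say that the number marks a pair. The family median ranged from -0.10 to 0.17 with a library left out, the higher values without Scr replicate 5 or P155 replicate 4. The direction was kept in 18 of 32 named Hox genes under each alternative. In genes whose groups did not overlap, leaving out a library could not turn the direction. It turned with a library left out in Hoxa2 (-0.46 to 0.17), Hoxb2 (-0.074 to 0.26), Hoxa3 (-0.17 to 0.15), Hoxa4 (-0.081 to 0.48), Hoxb4 (-0.31 to 0.27), Hoxa5 (-0.28 to 0.17), Hoxc5 (-0.018 to 0.46), Hoxb6 (-0.050 to 0.21), Hoxc6 (-0.10 to 0.35), Hoxb7 (-0.20 to 0.32), Hoxd8 (-0.44 to 0.022), Hoxd9 (-0.38 to 0.017), Hoxa10 (-0.37 to 0.15) and Hoxc10 (-0.75 to 0.025). With library-size scaling Hoxa3 was at 0.0017, where the median of all genes shifted by 0.012. The cause of these turns was not tested. With each member weighing the same, the cluster differences were -0.38 for HoxA, 0.11 for HoxB, -0.80 for HoxC and -0.90 for HoxD, since low caudal members then count in full. Relative to neuron markers, a reference chosen after seeing the data, they were -0.28, -0.20, -0.12 and -0.46. The ratio of groups 10 to 13 to groups 4 to 9, also chosen after seeing the data, was -0.64. Depth limits the genes of groups 11 to 13 most, in P155 replicate 5, where 1 read is worth 1.69 normalized reads.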
